A study of Solanum lycopersicum with 2 samples.

Results

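Galactinol synthases are represented in these data by 4 tomato gene models, Solyc01g079170, Solyc01g100830, Solyc02g062590 and Solyc02g084980. They were chosen by identifier, from a list that names them as the galactinol synthase family, out of 24915 gene models listed in either library. The libraries were made from young leaves of tomato (Solanum lycopersicum) cultivar Moneymaker. Plants were 8 weeks old and had been raised under glass with 16 h days at 24°C and 8 h nights at 20°C. The control group carries the stress label control, and whether these plants were also placed in the growth chamber is not stated. The heat-stress group was held at 39°C for 1 h in a chamber with light of 120 μmol m-2 s-1 and then recovered at 24°C for 1.5 h. Each group has 1 library, and differences between them cannot be set against a spread between replicates. How many plants a library stands for is not stated in the labels. The files give identifiers with no gene names, so the family name rests on the list and could not be checked here.

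Galactinol synthase transfers a galactosyl group from UDP-galactose to myo-inositol and so makes galactinol. This is the first committed step towards the raffinose family of oligosaccharides, because galactinol then donates its galactosyl group to sucrose to give raffinose, and to raffinose to give stachyose. These sugars are known as compatible solutes and antioxidants that accumulate in leaves under stress. In Arabidopsis thaliana some members of the family are induced by heat through heat stress transcription factors, and others by drought, salt or cold. The comparison here asks whether transcripts of the tomato family differed between control and heat-stressed leaves.

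Levels in the family were near or below the median of listed models, and no difference between the libraries was larger than counting error. Solyc02g084980 was the most abundant member, followed by Solyc01g079170, while Solyc02g062590 and Solyc01g100830 had at most 2 reads in a library. The summed level of the 4 members was 5.55 reads per 1000000 mapped reads (RPM) in control leaves and 7.18 RPM in heat-stressed leaves. The ratio of these sums was 1.29, with a 95% counting interval from 0.941 to 1.81 that includes 1. Intervals throughout are exact, rest on reads rounded to whole numbers, and cover counting error only, not the spread between plants, samples or preparations.

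Massive analysis of cDNA ends (MACE), the method used, sequences the 3′ end of poly-A RNA so that a transcript molecule gives 1 read. RPM can therefore be set side by side between genes with no correction for length, provided that each gene model reaches the true end of its transcript. The control library had 11534512 mapped reads, so that 1 read is worth 0.0867 RPM. The heat-stress library was deeper, at 13857252 mapped reads, and 1 read there is worth 0.0722 RPM. Taking 3 reads as the limit that a count of 0 allows gives 0.260 RPM for control and 0.216 RPM for heat-stressed leaves. The median level of the listed models was 4.42 RPM for control and 4.33 RPM for heat-stressed leaves.

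Solyc02g084980, on chromosome 2, had 44 reads from control and 66 from heat-stressed leaves. Its level was 3.81 RPM in control leaves (95% Poisson interval 2.77 to 5.12) and 4.76 RPM in heat-stressed leaves (3.68 to 6.06). The heat-stress level was the higher of the 2 values, but the intervals overlap. The ratio of heat-stress to control RPM was 1.25, with a 95% conditional binomial interval from 0.840 to 1.87. A ratio of 1 thus lies inside this interval and a doubling lies outside it. At its control depth of 44 reads, the interval would have excluded 1 from 78 heat-stress reads upwards, a ratio of 1.48, or at 32 reads and below, a ratio of 0.605. Smaller differences of this model were not detectable at this depth. By level this model ranked 11882 of 22893 listed models in the control library and 11525 of 23748 in the heat-stress library. Both levels were near the median of listed models, at 4.42 RPM for control and 4.33 RPM for heat-stressed leaves.

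Solyc01g079170, on chromosome 1, had 18 reads from control and 30 from heat-stressed leaves. This corresponds to 1.56 RPM in control leaves (0.925 to 2.47) and 2.16 RPM in heat-stressed leaves (1.46 to 3.09). Here too the heat-stress value was the higher, with overlapping intervals. The ratio was 1.39, with an interval from 0.749 to 2.64 that includes both 1 and a doubling. With 18 control reads, the heat-stress library would have needed at least 39 reads, a ratio of 1.80, or at most 9 reads, a ratio of 0.416, for the interval to exclude 1. The model ranked 14480 of 22893 listed models by level in the control library and 13960 of 23748 in the heat-stress library.

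The other members were at or under the limit of 3 reads in both libraries, and no ratio is given for them. Solyc02g062590, on chromosome 2, had 2 reads in each library, or 0.173 RPM in control leaves (0.0210 to 0.626) and 0.144 RPM in heat-stressed leaves (0.0175 to 0.521). Solyc01g100830, on chromosome 1, was not listed in the control library and was taken as 0 there. The limit of 3 reads puts its control level at up to 0.260 RPM, and the upper end of the exact Poisson interval is 0.320 RPM. In the heat-stress library it had 1.5 reads, or 0.108 RPM (0.0175 to 0.521, on 2 reads after rounding). A fraction is read here as a read divided between locations, so its detection in heat-stressed leaves is uncertain. Such low values were common, since 19.1% of the models listed in the control library and 18.8% of those in the heat-stress library had at most 3 reads. Whether these low values reflect little transcript or gene models that miss the transcript's 3′ end was not tested. In whole leaf, fewer cells that express a gene and less RNA per cell cannot be told apart.

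**Figure D1:**
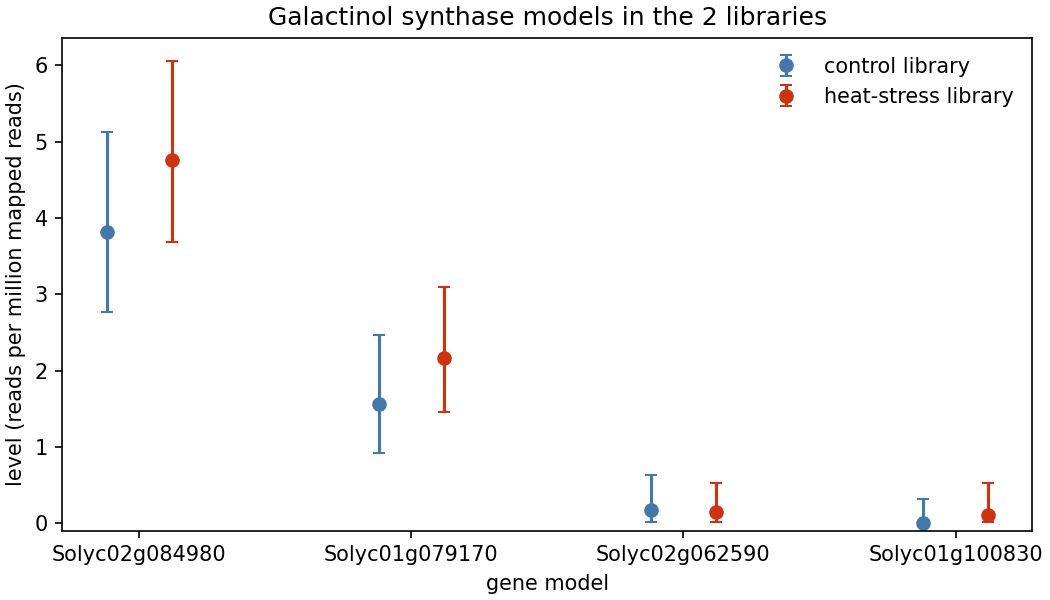
Level of each galactinol synthase model in RPM (vertical axis) in the control and the heat-stress library, with 95% Poisson intervals as bars and 1 library per point. Solyc02g084980 reached 3.81 and 4.76 RPM and Solyc01g079170 1.56 and 2.16 RPM with overlapping intervals, and the other models stayed at or under 0.173 RPM.

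The order of the members by level exceeded counting error for all but the last step. In the control library Solyc02g084980 had 2.44 times the reads of Solyc01g079170, with a 95% interval from 1.38 to 4.49. In the heat-stress library it had 2.20 times as many, from 1.41 to 3.51. The difference between these members was thus larger than counting error in each library, unlike the difference of either member between the libraries. The Poisson interval of Solyc01g079170 also lay above that of Solyc02g062590 in both libraries. The lower limit of Solyc01g079170 was 0.925 RPM in control leaves, where the upper limit of Solyc02g062590 was 0.626 RPM. The intervals of Solyc02g062590 and Solyc01g100830 overlapped in both libraries, so these neighbours in the order were not distinguished.

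Each member's part of the family's reads differed between the libraries by less than its counting interval. Solyc02g084980 held 68.8% of the 64 family reads in the control library (exact 95% binomial interval 55.9% to 79.8%). It held 66.3% of the family's reads in the heat-stress library (55.8% to 75.2%). Solyc01g079170 held 28.1% in the control library (17.6% to 40.8%) and 30.2% after heat stress (21.2% to 39.98%). For both members the share in either library lay inside the interval of the other. The summed level would have given an interval that excludes 1 from 106 heat-stress reads upwards, a ratio of 1.38, against the 99.5 reads observed.

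**Figure D2:**
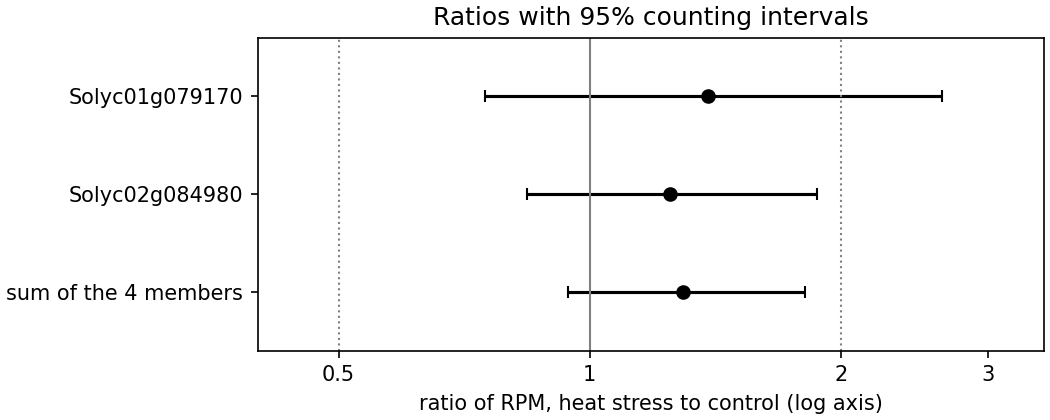
Ratio of heat-stress to control RPM (horizontal log axis) for the better-covered members and the sum over the family, with 95% conditional binomial intervals as bars. The points lie at 1.39, 1.25 and 1.29 and every interval crosses the solid line at 1, while the dotted line at a doubling falls inside the interval of Solyc01g079170 only.

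Set beside all gene models, the ratios of Solyc02g084980 and Solyc01g079170 with 1 RPM added were ordinary. Calls of 2-fold were made on log2((heat RPM + 1)/(control RPM + 1)) among models whose mean reached 5 RPM, of which 3.91% were higher and 1.66% lower in the heat-stress library. With means of 4.29 RPM or less, 0 of the 4 members passed this filter, so 0 could be called. With the filter lowered to a mean of 1 RPM, a setting chosen after the values were seen, 3.87% of 15954 models were higher and 1.44% lower. Solyc02g084980 and Solyc01g079170 passed that filter, and 0 of these 2 were called. Without any filter 2.55% of all 24915 models were higher and 0.943% lower, and 0 of the 4 members were called. With 1 RPM added, Solyc02g062590 and Solyc01g100830, at 0.173 and 0 RPM in control leaves, could not have been called lower. The count without a filter therefore says nothing of a fall in these members. In such small numbers a count of 0 is near what those percentages give.

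On that log2 scale Solyc02g084980 had a ratio of 0.26 and Solyc01g079170 a ratio of 0.31. The median of the 15954 models whose mean reached 1 RPM was 0.11, with an interquartile range from -0.17 to 0.38, and both members lay inside that range. Higher log2 ratios were found in 35.2% of these models than in Solyc02g084980 and in 30.8% than in Solyc01g079170. These places rest on the 1 RPM added, which draws ratios of low levels towards 0 the most. With 0.1 RPM added Solyc01g079170 was at 0.45, and the range over all models was not computed with that setting. When heat-stress values were scaled so that the median ratio of all models past 5 RPM was 1, which lowers them by 0.11 on the log2 scale, Solyc02g084980 was at 0.17 and Solyc01g079170 at 0.23. No model is named as most like a member, since that comparison was limited to members past 5 RPM. As a description of how common their values were, 815 other models had reads inside the Poisson intervals of Solyc02g084980 in both libraries. For Solyc01g079170 there were 1255 such models.

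**Figure D3:**
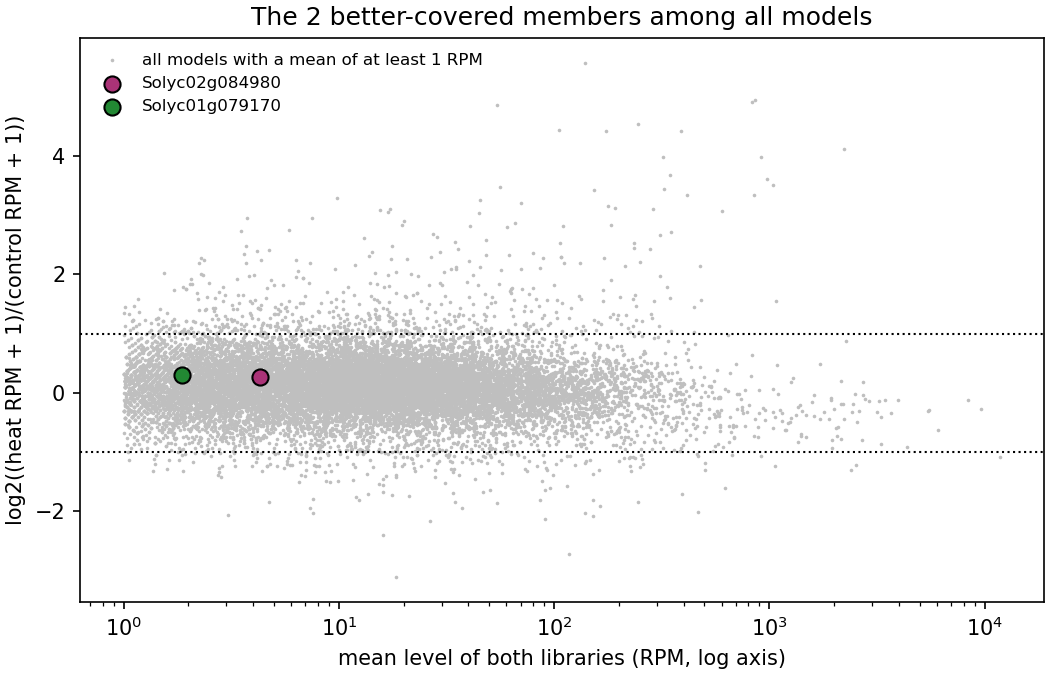
Log2 ratio of heat-stress to control RPM with 1 RPM added to each (vertical axis) against the mean level of both libraries in RPM (horizontal log axis), with each grey point a gene model. Dotted lines mark 2-fold, and Solyc02g084980 at 0.26 and Solyc01g079170 at 0.31 lie within the dense band around the median of 0.11.

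A further deposited measure, how high the tallest peak of a model's reads was, kept close to a fixed part of the reads. In Solyc02g084980 this peak held 14 of 44 reads in the control library, or 31.8% (18.6% to 47.6%). In the heat-stress library it held 22 of 66 reads, or 33.3% (22.2% to 46.01%). In Solyc01g079170 it held 6 of 18 reads from control and 10 of 30 from heat-stressed leaves, which is 33.3% in both. A difference in how reads were spread over the 3′ end was not detectable for either member at these read numbers, which leave wide intervals. The read totals of these members were whole numbers, which does not show that no read was divided between locations.

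Models listed next to the members often had higher levels than the member itself. The 2 nearest listed models on each side in identifier order gave 16 neighbours, and 12 of them had a higher mean level than the member beside them. All 4 neighbours of Solyc02g062590 lay above it, and so did all 4 neighbours of Solyc01g100830. Of all 24915 models, 15954 had a mean of at least 1 RPM, against 0.159 and 0.054 RPM for these members. Most models thus lie above these members. The 12 of 16 is not read as a trait of the stretches, and the share over all models was not computed. The models on either side of Solyc01g100830 had 13.0 and 12.5 RPM in control and 15.1 and 14.9 RPM in heat-stressed leaves. Those directly beside Solyc02g062590 had 24.0 and 39.7 RPM in control and 35.5 and 42.7 RPM in heat-stressed leaves. Only models with reads are listed, so the presence of some reads in neighbours follows from how they were chosen. Why these members had almost no reads was not tested.

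Ratios of the neighbouring models lay on both sides of 1. Of the 15 neighbours with over 3 reads in a library, 2 had a counting interval above 1 and 4 had an interval below 1. The share of all models with such an interval was not computed, so these counts are not read as a trait of the stretches. By the 2-fold rule, 0 were higher and 1 was lower. The lower one was Solyc02g062610, the second model after Solyc02g062590, with 1356 reads from control and 687 from heat-stressed leaves and a ratio of 0.422 (0.384 to 0.463). On the other side of that member, Solyc02g062580 had 277 and 492 reads and a ratio of 1.48 (1.27 to 1.72). These neighbours were picked after their values were seen. The next model after Solyc01g079170, on the opposite strand, had 98 reads from control and 55 from heat-stressed leaves, which is a ratio of 0.467 (0.329 to 0.656). The next after Solyc02g084980, on the same strand, had a ratio of 0.669 (0.595 to 0.752). Directly before these members, Solyc01g079160 had a ratio of 0.773 (0.249 to 2.78) and Solyc02g084970 a ratio of 0.999 (0.396 to 2.58). Both of those intervals include 1. The labels do not say whether the counting used strand, and without it reads of overlapping models cannot be told apart.

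**Figure D4:**
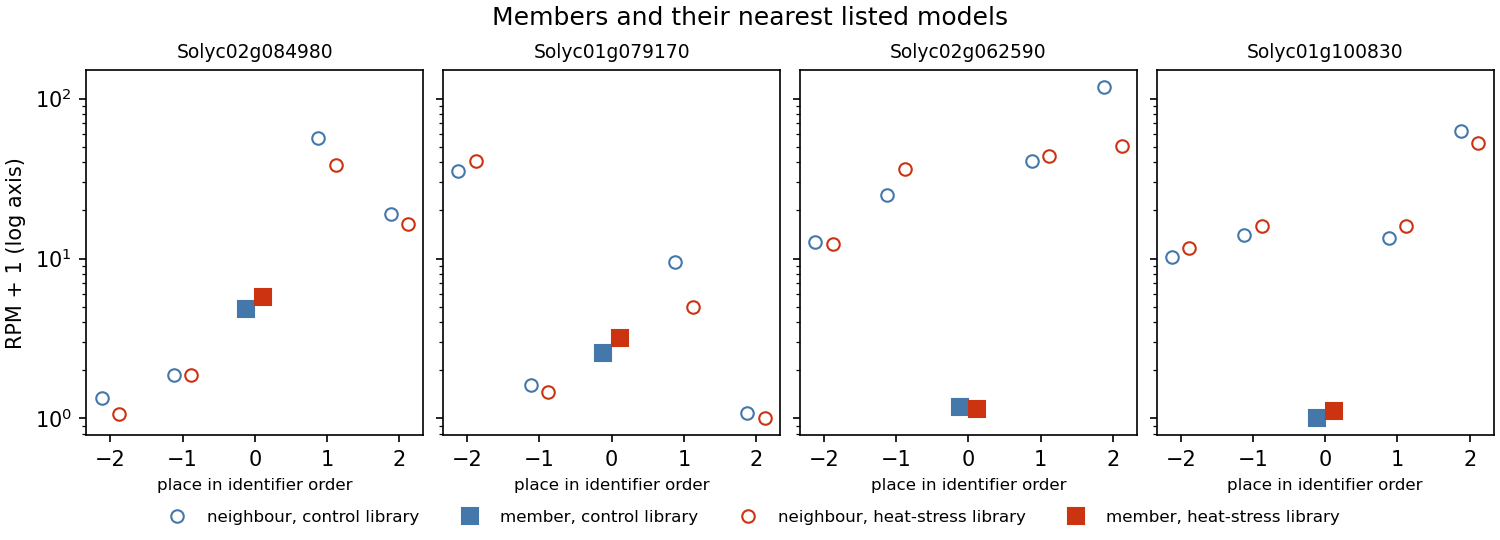
RPM plus 1 (vertical log axis) of each galactinol synthase model (filled squares, place 0) and of the 2 nearest listed models on each side in identifier order (open circles), in the control and the heat-stress library. The neighbours of Solyc02g062590 and Solyc01g100830 all lie above the member, and the 12 neighbours above their member were spread over all 4 stretches.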

How the data were processed

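RNA of 2 leaf libraries was sequenced at the 3′ end (the last 500 bp), per the labels' protocols. FastQC is named by the submitters' processing notes, and no aligner, build or annotation is given in the sources used here. Per the file headers, the authors deposited an estimated count of reads per gene model, with fractions read here as reads divided between locations, and a count of all mapped reads per library. The deposited column headed TPM equalled reads per 1000000 mapped reads (RPM) on every row, with a largest difference of 3.42e-08 RPM. A deposited peak height is a signal in reads, and how a peak was defined is not stated.

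A model absent from a library's list counted as 0 there. Intervals are exact Poisson for levels, Clopper-Pearson for shares and conditional binomial for ratios, at 95%, computed with scipy 1.17.1 in Python 3.11.15 on rounded reads and tested on simulated data. Ratios were not given where both libraries had at most 3 reads. Fold calls used a pseudocount of 1 RPM and a mean of at least 5 RPM. No test between conditions was run, since each group has 1 library. All 4 members are named, and a model most like a member was to be named only for members past the filter. The members and lists were chosen with earlier results of these data known.

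Of 24915 identifiers, 0 matched the 41476 genes of the RefSeq table for assembly SLM_r2.1. That table names galactinol synthase genes on chromosomes 1 and 2, where the members also lie, but no column joins the 2 sets. The family name therefore rests on the list of members and was not checked against an annotation. Lists for raffinose and stachyose synthases, myo-inositol synthesis, UDP-galactose supply and raffinose breakdown needed gene descriptions and were not run. Leaf identity could not be checked by markers for the same reason. No sequence of a member was used here.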

Additional observations from a re-analysis of the deposited data

How the results depend on the processing

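The log2 ratios, with a pseudocount of 1 RPM, were 0.31 for Solyc01g079170, 0.26 for Solyc02g084980 and 0.32 for the summed members. They kept their direction and stayed inside the counting interval of the ratio under other pseudocounts, scalings, the highest peak as the measure and equal depth. A pseudocount cannot change the direction and leaves a value between 0 and the raw log2 ratio, both inside the interval. Equal depth was a mean over random draws, which returns nearly the same value by design. Those settings therefore say nothing of stability, while the scalings and the highest peak could have changed the direction. Solyc01g079170 ranged from 0.13 to 0.45 and Solyc02g084980 from 0.15 to 0.31, in each case between pseudocounts of 5 and 0.1 RPM. The summed members ranged from 0.21 to 0.37, leaving out each member in turn included. The counts of members called 2-fold were 0 in both directions under all 13 alternatives, most of which left no member past the filter. With the filter of 5 RPM, and under the stricter filter of 20 RPM, 0 members could be called, so those settings say nothing of stability. With reads in models as the total, 1 member passed the filter of 5 RPM and was not called. Without a filter, the members at or under 3 reads could not have been called lower, given the 1 RPM added. The filter of 1 RPM, alone and with a 1.5-fold threshold, was chosen after seeing the data. Members at or under 3 reads were given no ratio under any alternative. No replicate could be left out. No paired analysis was possible because there was 1 library in each group. Depth limits every value here, and the spread between plants is unknown.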
